A study of Mus musculus with 3 samples.

Results

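NRF2 and its core targets are a set of 8 mouse genes, out of the 31253 genes in the deposited count matrices. They were chosen by name, with earlier results of these data known. They are Nfe2l2, which encodes the transcription factor NRF2, and the targets Hmox1, Slc7a11, Gclc, Gclm, Txnrd1, Srxn1 and Nqo1. All 8 were present in the matrices, and each is described below across cell types and libraries. Single cells of the jaw were profiled with the 10x Genomics droplet method in a 1d library, a 7d library and a Ctrl library. Mice of the 1d library had received 10 Gy to the head and neck and were killed 1 day later. Mice of the 7d library had received the same 10 Gy dose and were killed 7 days later, whereas Ctrl mice were not irradiated. All were wild-type male C57BL/6 mice, 10 weeks old, and 8 mice were pooled into each library (24 mice in all). Every group was therefore 1 library, no difference between groups could be tested against the spread between mice, and the 95% intervals given below cover counting error only.

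NRF2 is made all the time and destroyed almost as fast, because the adaptor KEAP1 holds it and passes it to a ubiquitin ligase. Oxidants and electrophiles modify cysteines of KEAP1, NRF2 then escapes, enters the nucleus, pairs with a small MAF protein and binds antioxidant response elements near its target genes. BACH1 is a repressor that occupies the same elements until haem binds it. The targets restore reducing power: cystine uptake and glutathione synthesis, the thioredoxin system, quinone reduction and breakdown of free haem. Since NRF2 is controlled mainly as a protein, the RNA of its targets is commonly read in place of NRF2 activity, but several targets also answer other factors. Slc7a11 answers ATF4, the factor of amino acid shortage, and Hmox1 answers haem through BACH1.

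The sequence by which a target can answer NRF2 is short, and the stretches below are shown because they differ in how many matches they hold. RefSeq promoter windows of build GRCm38.p6, 250 bases before to 50 bases after a start site, were matched for 6 of the 8 members, giving 8 windows because Txnrd1 has several starts. The core of the antioxidant response element was searched on both strands as TGACNNNGC and as TGAGNNNGC, and the amino acid response element bound by ATF4 as TGATGCAA. The first core was found in 12.4% of 32851 windows, the second in 17.6%, either of them in 27.8% and the amino acid response element in 0.895%. The 250 bases before the start site are printed 5′ to 3′ along the gene's strand, with matches in capitals.
Srxn1, chr2:152105274-152105523, plus strand: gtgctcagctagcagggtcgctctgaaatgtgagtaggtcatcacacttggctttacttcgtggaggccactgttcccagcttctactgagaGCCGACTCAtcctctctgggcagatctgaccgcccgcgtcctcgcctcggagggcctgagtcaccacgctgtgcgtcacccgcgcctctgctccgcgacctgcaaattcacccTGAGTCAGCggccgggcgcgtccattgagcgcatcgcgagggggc
Slc7a11, chr3:50443614-50443863, minus strand: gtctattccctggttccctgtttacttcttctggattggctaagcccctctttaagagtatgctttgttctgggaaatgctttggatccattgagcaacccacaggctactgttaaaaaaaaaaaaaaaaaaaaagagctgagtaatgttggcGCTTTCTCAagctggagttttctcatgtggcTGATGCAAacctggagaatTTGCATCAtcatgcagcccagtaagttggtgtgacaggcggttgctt
Txnrd1, chr10:82858956-82859205, plus strand: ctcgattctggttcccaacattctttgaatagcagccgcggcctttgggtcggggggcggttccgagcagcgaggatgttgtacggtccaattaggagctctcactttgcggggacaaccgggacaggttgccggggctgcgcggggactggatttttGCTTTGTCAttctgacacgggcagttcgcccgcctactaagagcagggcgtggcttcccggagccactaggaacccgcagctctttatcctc
Gclm, chr3:122245307-122245556, plus strand: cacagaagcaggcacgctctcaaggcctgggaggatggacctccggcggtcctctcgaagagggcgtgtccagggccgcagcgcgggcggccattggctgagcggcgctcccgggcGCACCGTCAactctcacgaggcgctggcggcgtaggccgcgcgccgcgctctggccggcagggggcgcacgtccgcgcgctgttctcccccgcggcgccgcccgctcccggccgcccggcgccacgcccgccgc
Srxn1 had 2 cores in this stretch, both of the TGAGNNNGC form, and 1 further match, of the TGACNNNGC form, in the bases after its start site. Slc7a11 had 1 core of the TGAGNNNGC form and, closer to its start, 2 copies of the amino acid response element on opposite strands. A core together with an amino acid response element was found in 62 of the 32851 windows (0.189%). Txnrd1 had 1 core of the TGACNNNGC form in the window shown and no match in its other 2 windows, one of which lies at the annotated start of the gene. Gclm had 1 core of the same form, as did Nfe2l2, while the Nqo1 window had no match to these letters. A match is a string of letters and not a measured binding site.

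The matrices gave 4879 cells of the 1d library, 6094 of the 7d library and 8587 of the Ctrl library after filtering, at a median of 5022, 3816.5 and 2413 UMIs per cell (unique molecular identifiers, each standing for 1 captured RNA molecule). The 1d and 7d libraries shared 12 barcodes, 1d and Ctrl 20, and 7d and Ctrl 24. Scrublet removed 248, 403 and 293 cells as doublets. A level is the number of UMIs of a gene per 1000000 UMIs, taken from the sum of all cells that a class had in a library (CPM), and classes carry "-like" because clusters were rebuilt and named from marker genes, so a difference from the study's own cell types may come from these names. The mesenchymal pool joined the periodontal ligament, fibroblast, osteoblast and pericyte clusters with an unnamed cluster closest to marrow stromal cells. It held 214, 80 and 625 cells of the 1d, 7d and Ctrl libraries. Its markers were present in every library, with the collagen gene Col1a1 at 11578, 20464 and 22619 CPM and the leukocyte gene Ptprc at 5.08, 18.9 and 34.5 CPM in 1d, 7d and Ctrl. The makeup of the pool differed, since the named clusters gave 43.9%, 72.5% and 58.1% of it in 1d, 7d and Ctrl and the collagen gene Col3a1 lay at 3953, 16595 and 2715 CPM. Osteoblast-like cluster 13.4 held 6, 0 and 39 cells of 1d, 7d and Ctrl, and pericyte-like cluster 13.7 held 25, 1 and 35. In Ctrl the osteoblast-like cells gave 1934 of the pool's 6074 Hmox1 UMIs and 335 of its 1709 Srxn1 UMIs. Ratios of the pool therefore compare different mixtures of cells.

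One check goes against the labels. RNA of p53 targets, which irradiation is known to induce, was lower in the pool of both libraries labelled as irradiated. In the pool 14 of 16 listed p53 targets were lower in 1d and 12 of 16 in 7d than in Ctrl, with medians of −1.25 and −0.79 on the log2 scale. Over all genes of the pool 34.7% were lower in 1d and 37.2% in 7d. Outside the pool the p53 median differed by class. In 1d it was 0.06 in B cell-like cells, with 7 of 13 genes higher and 6 lower. It was −0.15 in monocyte-like cells and −0.83 in macrophage-like cells. Natural killer or innate lymphoid, T, basophil- and conventional dendritic cell-like cells of 1d were at −0.69, −0.36, −0.68 and −0.70. In 7d B, T and natural killer or innate lymphoid cell-like cells were at −0.49, −0.33 and −0.57. Basophil-, conventional dendritic cell-, macrophage- and monocyte-like cells of 7d were at −0.95, −0.31, −0.80 and −0.14. Mdm2 lay at 90.0 CPM in 1d and 78.1 CPM in 7d, against 399 CPM in Ctrl. The names 1d, 7d and Ctrl therefore stand for the libraries that carry these labels, and every direction below rests on them.

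In the mesenchymal pool, all members but Nqo1 were past 2-fold lower in 7d than in Ctrl. In 1d all 8 lay within 2-fold of Ctrl, though the ratio intervals of 4 (Nfe2l2, Hmox1, Slc7a11 and Gclc) lay below 1. Of the 8 members, 7 were past 2-fold lower in 7d and 0 past 2-fold higher, with a median log2 ratio of −2.36 beside a median of 0.30 over the 11561 genes compared. Over all those genes 11.1% were past 2-fold lower and 20.3% past 2-fold higher. In 1d, 0 of 8 members were past 2-fold in either direction, with a median of −0.18 beside 0.14 over 11899 genes, of which 4.34% were past 2-fold lower and 4.88% higher. With every cell thinned to 1000 UMIs, so that large cells count no more than small ones, the 7d median was −1.11.

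**Figure D1:**
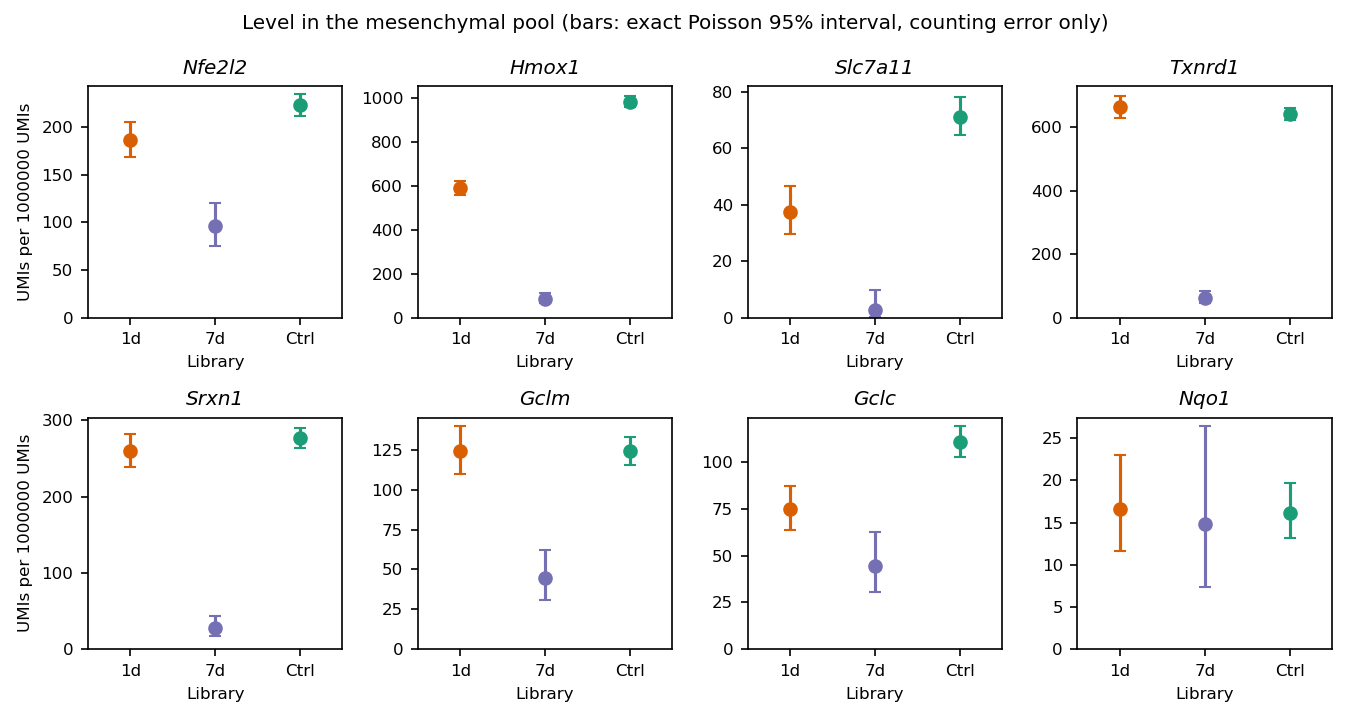
UMIs per 1000000 of each of the 8 members (1 panel each) in the mesenchymal pool of the 1d, 7d and Ctrl libraries. Points are the summed level of 1 library and bars its exact Poisson 95% interval. The 7d point lies under the Ctrl point for all 8 members, and for Nqo1 their bars overlap.

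Nfe2l2 itself, the factor, was at 186 CPM in the pool of 1d and 95.7 CPM in 7d, against 223 CPM in Ctrl. The ratio to Ctrl was 0.835 (0.745 to 0.933) in 1d and 0.429 (0.333 to 0.545) in 7d. Both irradiated libraries thus lay under Ctrl in the RNA of the factor, by less than 2-fold in 1d. With thinned cells the 7d log2 ratio of Nfe2l2 was −0.63, against −1.21 from summed UMIs.

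Hmox1 encodes haem oxygenase, which opens the haem ring and frees iron, carbon monoxide and biliverdin. It was at 591 CPM in the pool of 1d (1280 UMIs) and 86.2 CPM in 7d (64 UMIs), against 984 CPM in Ctrl (6074 UMIs), so the intervals of the 3 libraries did not overlap. The ratio to Ctrl was 0.601 (0.565 to 0.638) in 1d and 0.0877 (0.0674 to 0.112) in 7d, and the 7d log2 ratio of −3.50 was −2.89 with doublets kept. In thinned cells 28.1% of the pool had a Hmox1 UMI in 1d and 6.25% in 7d, against 43.6% in Ctrl. Thinned B cell-like cells, a type not known for this enzyme, gave 0.568%, 0.868% and 1.94% in 1d, 7d and Ctrl, at a median depth before thinning of 2520, 1835 and 1904.5 UMIs beside 9556, 8130 and 7401 UMIs in the pool. The pool therefore lay above this background in every library.

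In the pool as a whole the cystine and glutathione genes were all lower in 7d. In 1d Slc7a11 and Gclc lay under Ctrl there while Gclm did not. Slc7a11, the cystine importer that feeds glutathione synthesis, was at 37.4 CPM in the pool of 1d (81 UMIs) and 2.69 CPM in 7d (2 UMIs), against 71.3 CPM in Ctrl (440 UMIs). Its ratio was 0.525 (0.409 to 0.667) in 1d and 0.0378 (0.00457 to 0.137) in 7d. The 1d value was unsteady: its log2 ratio of −0.92 became −0.10 with doublets kept and −2.09 in the largest cluster alone, while in 7d the log2 ratio lay between −5.59 and −3.68 over the alternative settings. Gclc, the catalytic subunit of the enzyme that joins glutamate to cysteine, was at 74.8 CPM in 1d and 44.5 CPM in 7d, against 111 CPM in Ctrl. Gclm, its modifier subunit, was at 124 CPM in 1d and 44.5 CPM in 7d, against 124 CPM in Ctrl. In 1d the ratio was 0.675 (0.565 to 0.803) for Gclc and 1.00 (0.867 to 1.15) for Gclm, and both were lower in 7d, at 0.401 (0.274 to 0.569) and 0.358 (0.245 to 0.507). Within the largest periodontal ligament cluster of the pool the 1d values stood the other way round, at 2.14 (1.32 to 3.43) for Gclc and 0.623 (0.339 to 1.08) for Gclm, and with thinned cells the 1d log2 ratio of Gclc was −1.72, against −0.56 from summed UMIs. The 7d log2 ratio of Gclm was −0.30 with thinned cells, against −1.46 from summed UMIs. Within the largest periodontal ligament cluster the 7d ratio of Gclc was 0.822 (0.441 to 1.47), so the lower pool value was not seen there.

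In the pool as a whole the thioredoxin genes were level between 1d and Ctrl and about 10 times lower in 7d. Txnrd1, the reductase that recharges thioredoxin, was at 663 CPM in the pool of 1d and 63.3 CPM in 7d, against 642 CPM in Ctrl, with ratios of 1.03 (0.971 to 1.10) and 0.0987 (0.0724 to 0.131). Srxn1, sulfiredoxin, which rescues overoxidised peroxiredoxins, was at 260 CPM in 1d (562 UMIs) and 28.3 CPM in 7d (21 UMIs), against 277 CPM in Ctrl (1709 UMIs), with ratios of 0.938 (0.851 to 1.03) and 0.102 (0.0631 to 0.157). Single clusters were not level in 1d. The 1d ratio of Txnrd1 was 0.829 (0.724 to 0.946) in part 8.0 of the unnamed cluster and 0.809 (0.730 to 0.895) in part 8.1. In the largest periodontal ligament cluster it was 0.857 (0.676 to 1.08). For Srxn1 the 1d ratios there were 1.04 (0.835 to 1.30), 0.781 (0.680 to 0.896) and 1.57 (1.09 to 2.24), in the same order. With thinned cells the 7d log2 ratio was −2.14 for Txnrd1 and −1.35 for Srxn1, against −3.33 and −3.26 from summed UMIs. For Srxn1 it was −2.47 in the named clusters alone and −4.24 in the unnamed cluster alone. Nqo1, the quinone reductase, stood apart at 16.6 CPM in 1d and 14.8 CPM in 7d, against 16.2 CPM in Ctrl. Its 7d ratio of 0.915 (0.443 to 1.71) rested on 11 UMIs, so a difference was not detectable at this depth.

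Cells that carried several targets were scarcer in the pool of 7d. With thinned cells, 32.7% of pool cells in 1d and 6.25% in 7d held UMIs of at least 2 of the 7 targets, against 36.7% in Ctrl. At least 1 target was found in 58.7% of cells in 1d and 33.8% in 7d, against 69.2% in Ctrl. B cell-like cells with at least 2 targets made up 0.909% in 1d and 0.868% in 7d, against 1.88% in Ctrl, and T cell-like cells 1.34%, 1.26% and 1.47%.

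The 2 arms of the pool gave the same direction in 7d. In its named clusters alone the median of the members was −1.91, and in the unnamed cluster alone it was −2.32, over 22 cells of 7d. Neither arm was a comparison of like cells. The named clusters held 0 osteoblast-like cells of 7d and 39 of Ctrl. The parts of the unnamed cluster had too few cells of 7d to be compared singly. In Ctrl they differed, with Txnrd1 at 796 CPM in cluster 8.0 and 1296 CPM in cluster 8.1. How far such mixtures account for the medians was not tested. Periodontal ligament or tendon cell-like cells, which anchor tooth to bone, numbered 42, 36 and 126 in 1d, 7d and Ctrl and are part of the pool. Of 7 members compared there, 5 were past 2-fold lower in 7d (13.4% of all genes, 10.8% higher), with a median of −1.94 beside 0.06 over all genes, and 0 of 7 were past 2-fold in 1d (7.8% lower and 3.64% higher over all genes). Hmox1 was at 418 CPM in 1d and 82.9 CPM in 7d, against 545 CPM in Ctrl, and Txnrd1 at 341 CPM in 1d and 37.7 CPM in 7d, against 438 CPM in Ctrl. The 7d ratios were 0.152 (0.104 to 0.216) for Hmox1 and 0.086 (0.0477 to 0.143) for Txnrd1. With thinned cells their log2 ratios were −5.47 and −1.92, against −2.70 and −3.49 from summed UMIs. The size of the thinned Hmox1 value depends on the 0.5 UMI added. In their largest single cluster the 7d ratios of Hmox1 and Txnrd1 were 0.164 and 0.0998. Those of Srxn1, Nfe2l2 and Gclm there were 0.374 (0.206 to 0.641), 0.474 (0.317 to 0.691) and 0.493 (0.273 to 0.843). Gclc, at 0.822 (0.441 to 1.47), had an interval that held 1.

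RNA of other cell types also differed between the libraries, and not always in the order of the members. Summed over 7 neutrophil genes, the pool held 1679 CPM in 1d and 172 CPM in 7d, against 1614 CPM in Ctrl, with 0 of the 7 genes at 0 in any library. Periodontal ligament or tendon cell-like cells held 6864 CPM in 1d and 193 CPM in 7d, against 385 CPM in Ctrl. Red cell RNA, summed over 5 genes, was 336 CPM in the pool of 1d and 562 CPM in 7d, against 5202 CPM in Ctrl, again with 0 genes at 0. The part of this RNA in the result was not tested. Subtracting 5% of free RNA with the profile of the whole library gave a 7d median of −2.44.

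The other NRF2 targets were divided in 7d. Of 31 other NRF2 targets compared in the pool, 15 were higher and 16 lower in 7d, 3 past 2-fold higher and 6 past 2-fold lower, with a median of −0.02, whereas over all genes 62.8% were higher and 37.2% lower, with a median of 0.30. Ugdh, which makes the glucuronic acid donor, was at 121 CPM in 7d against 487 CPM in Ctrl (ratio 0.249, 0.2 to 0.307), and Sqstm1, the autophagy receptor p62 that also binds KEAP1, at 212 CPM against 639 CPM (0.331, 0.280 to 0.388). On the other side Idh1, a source of NADPH, was at 52.5 CPM in 7d against 20.1 CPM in Ctrl (2.62, 1.78 to 3.78), and Pir at 13.5 CPM against 3.89 CPM (3.47, 1.48 to 7.52). In 1d the median of the same 31 genes was −0.0016, with 1 past 2-fold higher and 2 lower. Gsta4 and G6pdx were at ratios of 1.59 (1.30 to 1.93) and 1.78 (1.29 to 2.44), and the detoxification genes Ephx1 and Gsta3 at 0.182 (0.124 to 0.257) and 0.101 (0.0204 to 0.304), Gsta3 from 3 UMIs in 1d.

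**Figure D2:**
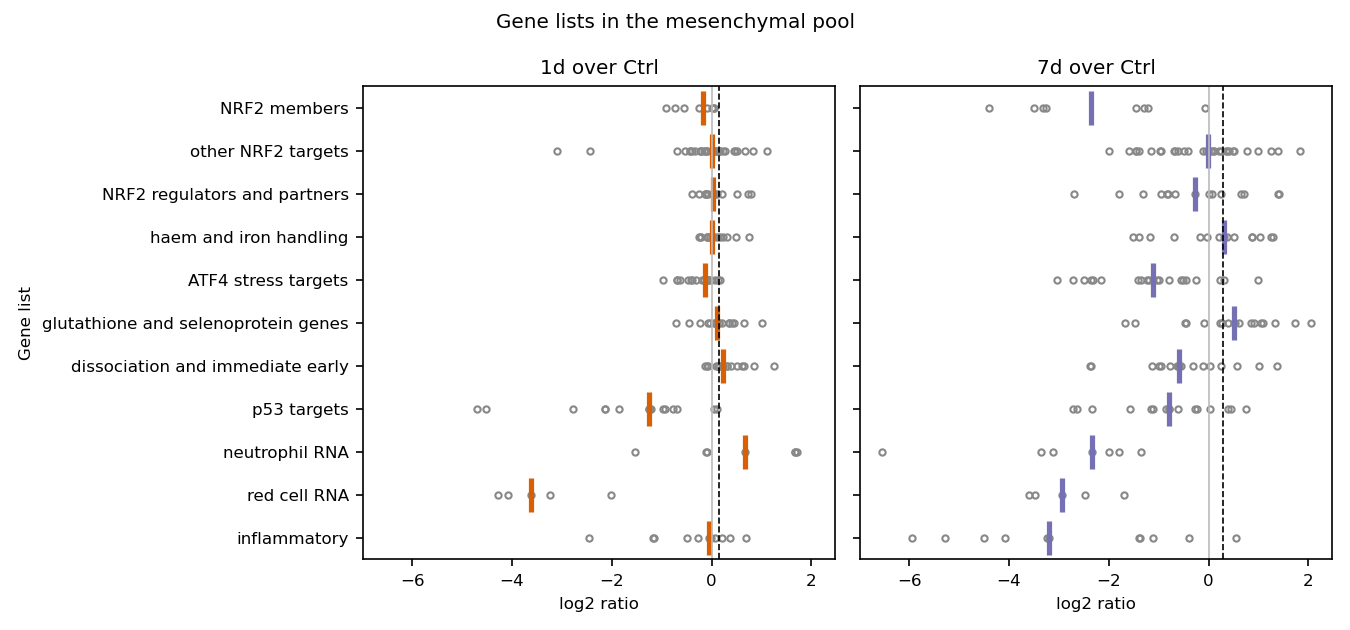
Log2 ratio to Ctrl in the mesenchymal pool of the genes of each list, for 1d and 7d. Open circles are genes, coloured ticks are list medians and the dashed line is the median of all genes compared. The tick of the 8 members lies at −0.18 in 1d and −2.36 in 7d.

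Among regulators and partners the repressor and the adaptor parted. Bach1 was at 190 CPM in the pool of 1d and 31.0 CPM in 7d, against 205 CPM in Ctrl, a 7d ratio of 0.151 (0.0954 to 0.228). Keap1 was at 25.9 CPM in 1d and 29.6 CPM in 7d, against 25.4 CPM in Ctrl, and its 7d ratio of 1.17 had an interval of 0.710 to 1.83. Maff, a small MAF partner, was at 326 CPM in 1d and 64.7 CPM in 7d, against 228 CPM in Ctrl, so it lay above Ctrl in 1d (1.43, 1.30 to 1.56) and under it in 7d (0.283, 0.208 to 0.378). Nfe2l3, an NRF2 relative, was at 1.66 (1.15 to 2.38) and Mafg at 0.834 (0.725 to 0.956) in 1d, while Pgam5, a phosphatase that KEAP1 binds, and Btrc, a ligase subunit for NRF2, were at 2.62 (1.42 to 4.59) and 2.57 (1.40 to 4.50) in 7d. Of 15 genes compared in this list, 2 were past 2-fold higher and 3 past 2-fold lower in 7d (median −0.27), and 0 in 1d (median 0.02). Over all genes 20.3% were past 2-fold higher and 11.1% past 2-fold lower in 7d, so these counts lay near the background. The medians of all genes were 0.30 in 7d and 0.14 in 1d.

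Neighbouring pathways differed from each other in 7d. The ATF4 stress list, to which cystine uptake also belongs, had 17 of 20 genes lower and 11 past 2-fold lower, with a median of −1.12. Over all genes 37.2% were lower and 11.1% past 2-fold lower, with a median of 0.30. Sesn2, a p53 and ATF4 target, was at 22.9 CPM in 7d against 154 CPM in Ctrl (0.149, 0.0863 to 0.239), Slc7a1, an arginine importer, at 21.6 CPM against 126 CPM (0.172, 0.0976 to 0.280), and Ddit4, an inhibitor of mTORC1, at 108 CPM against 54.3 CPM (1.99, 1.54 to 2.54). Slc3a2, the heavy chain that pairs with the Slc7a11 protein, was at 453 CPM in 1d and 176 CPM in 7d, against 475 CPM in Ctrl. In 1d 17 of 20 ATF4 genes were lower as well (34.7% of all genes), 0 of them past 2-fold, with a median of −0.13. Nupr1 was at 0.508 (0.470 to 0.548), Sesn2 at 0.621 and Cebpb at 1.05 (1.00 to 1.10).

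Of 18 glutathione and selenoprotein genes, 13 were higher in 7d, 5 past 2-fold higher and 2 past 2-fold lower, with a median of 0.51. Over all genes 62.8% were higher, 20.3% past 2-fold higher and 11.1% past 2-fold lower, with a median of 0.30, so the list lay near the background. Txnip, which binds and inhibits thioredoxin, was at 85.9 CPM in the pool of 1d and 175 CPM in 7d, against 42.6 CPM in Ctrl, with ratios of 2.02 (1.66 to 2.44) and 4.11 (3.31 to 5.09). Gpx3, the secreted glutathione peroxidase, was at 2092 CPM in 1d and 6021 CPM in 7d, against 1823 CPM in Ctrl. Glrx, glutaredoxin, was at 21.6 CPM in 7d against 61.5 CPM in Ctrl (0.350, 0.198 to 0.576) and Txnrd3 at 0.252 (0.0299 to 0.947), from 2 UMIs in 7d. The inhibitor and the reductase of thioredoxin thus stood on opposite sides of Ctrl in 7d, Txnip higher and Txnrd1 lower. In 1d the list's median was 0.12, with Selenop at 1.58 (1.40 to 1.77), Msrb1 at 0.609 (0.463 to 0.792) and Gpx8 at 0.853 (0.731 to 0.994).

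Haem and iron genes had a median of 0.31 in 7d, close to the 0.30 of all genes, and 0.01 in 1d. The ferritin chain Ftl1 was at 2647 CPM in 1d and 1161 CPM in 7d, against 3062 CPM in Ctrl, and Fth1 at 5378, 3931 and 6332 CPM in 1d, 7d and Ctrl. Fech, which inserts iron into haem, was at a 7d ratio of 2.44 (1.66 to 3.51) and Lrp1, a receptor for haem-bound haemopexin, at 1.83 (1.66 to 2.01). The list of dissociation and immediate early genes, which answer tissue digestion, had a median of 0.24 in 1d and −0.59 in 7d. In 7d Fos was at 2.58 and Dusp1 at 2.02, while the heat shock genes Hsph1 and Hspb1 were at 0.190 and 0.194, and in 1d Hspa1a was at 2.39 and Hspa1b at 1.80. Inflammatory genes had a median of −0.05 in 1d and −3.20 in 7d, with Il6 at 33.2 CPM in 1d and 4.04 CPM in 7d, against 183 CPM in Ctrl. Lif was at 221 CPM in 1d and 9.43 CPM in 7d, against 229 CPM in Ctrl. The 7d pool was thus lower in stress and cytokine genes outside the NRF2 network too, and the part of digestion and freezing in these levels was not tested.

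Across cell types the members had different homes. Hmox1 was highest in myeloid and bone-forming cells. In Ctrl, monocyte-like cells were at 2094 CPM, macrophage-like cells at 1917 CPM and osteoblast-like cells at 1642 CPM, ahead of neutrophil-like cells at 980 CPM, endothelial cell-like cells at 956 CPM and fibroblast-like cells at 895 CPM. In 1d the order was macrophage-like cells at 1367 CPM, monocyte-like cells at 742 CPM, neutrophil-like cells at 547 CPM and periodontal ligament or tendon cell-like cells at 418 CPM, with no overlap of intervals between these neighbours. In 7d macrophage- and monocyte-like cells overlapped at 1854 and 1833 CPM, followed by neutrophil-like cells at 866 CPM. B cell-like cells held 6.61 CPM in 1d and 9.43 CPM in 7d, against 24.1 CPM in Ctrl, and T cell-like cells 10.5, 18.8 and 14.6 CPM in 1d, 7d and Ctrl. Monocyte-like cells held 34.4% of the library's Hmox1 UMIs in 1d and 37.8% in 7d, whereas in Ctrl neutrophil-like cells held 42.5% and the pool 27.5%.

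**Figure D3:**
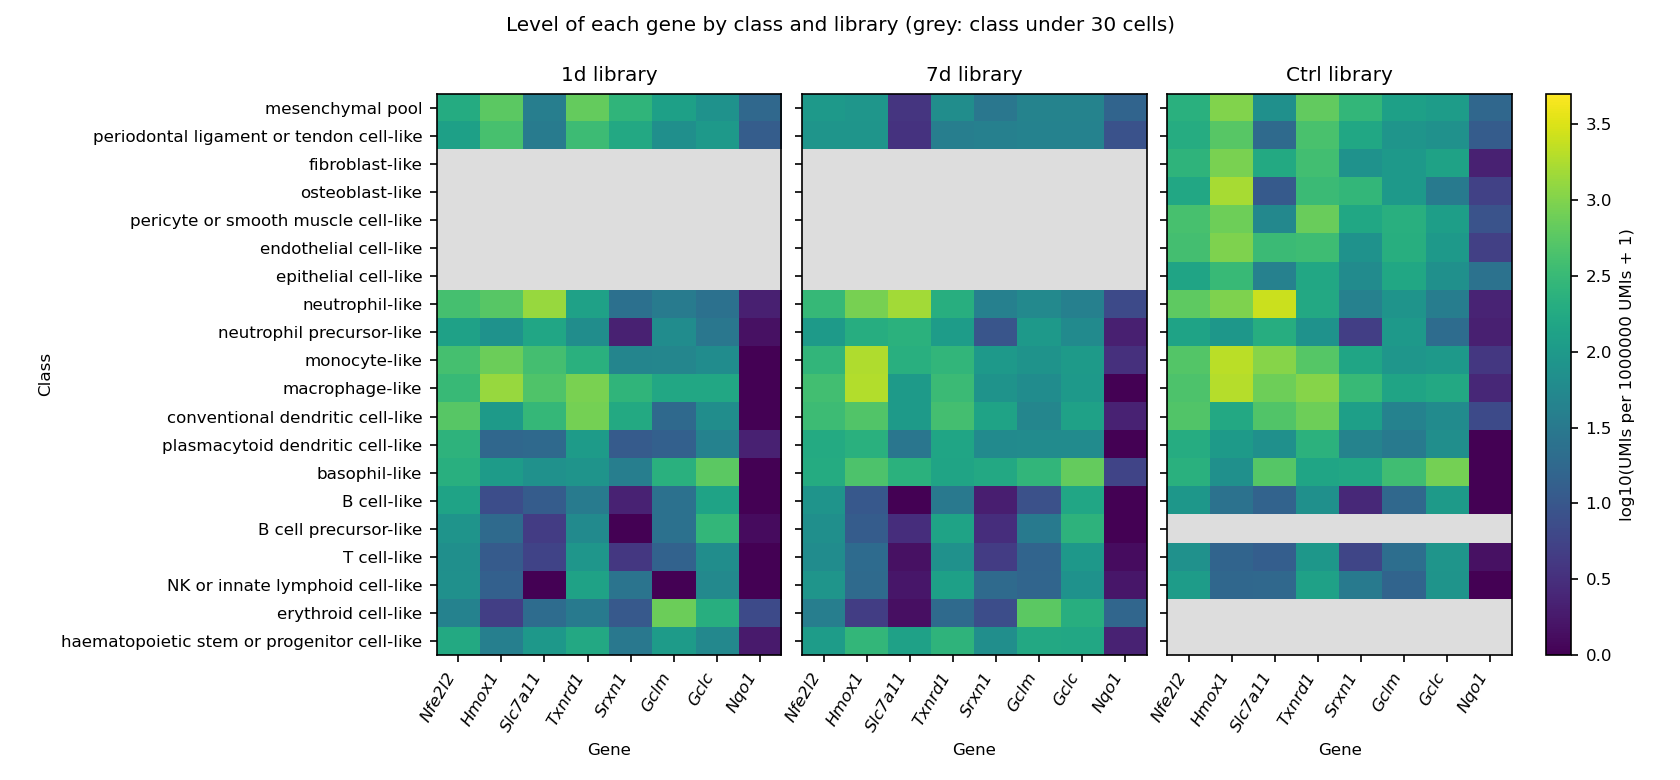
Level of each member (columns) by cell class (lines of the heatmap) in 1d, 7d and Ctrl, as log10 of UMIs per 1000000 plus 1. Grey marks classes under 30 cells. Yellow is high, and Slc7a11 is brightest for neutrophil-like cells in every library, at 1330, 1530 and 2558 CPM in 1d, 7d and Ctrl.

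Several blood-cell classes of 7d had more Hmox1 RNA than those of Ctrl, the opposite side from the pool. Basophil-like cells were at 107 CPM in 1d and 457 CPM in 7d, against 69.9 CPM in Ctrl, with a 7d ratio of 6.54 (3.91 to 11.8) from 392 and 15 UMIs. The log2 ratio, 2.66, was 1.76 with doublets kept and 3.33 with free RNA subtracted. Conventional dendritic cell-like cells were at 102 CPM in 1d and 503 CPM in 7d, against 172 CPM in Ctrl, ratios of 0.596 (0.397 to 0.876) and 2.93 (2.38 to 3.64). Plasmacytoid dendritic cell-like cells were at 16.4 CPM in 1d and 226 CPM in 7d, against 103 CPM in Ctrl, ratios of 0.159 (0.0757 to 0.323) and 2.20 (1.41 to 3.57). These 3 classes thus lay above Ctrl in 7d, and in 1d both dendritic classes lay under it. With thinned cells the 7d log2 ratio of plasmacytoid dendritic cell-like cells was 0.24, against 1.11 from summed UMIs. In the basophil-like cells of 1d and Ctrl single cells gave 39.5% and 46.7% of the Hmox1 UMIs.

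Hmox1 in monocyte- and neutrophil-like cells depended on which clusters filled the class. Monocyte-like cells were at ratios of 0.354 (0.335 to 0.375) in 1d and 0.875 (0.831 to 0.922) in 7d, but cluster 12.1 held 11, 228 and 1 cells of 1d, 7d and Ctrl and cluster 11.0 held 152, 18 and 204. Within cluster 11.0 the 1d level was 1265 CPM against 2522 CPM in Ctrl (0.502, 0.467 to 0.539), and within cluster 12.0 it was 575 CPM against 580 CPM (0.992, 0.813 to 1.22). Neutrophil-like cells as a whole were at 0.558 (0.531 to 0.586) in 1d and 0.884 (0.819 to 0.952) in 7d. Their 3 clusters differed. In cluster 4 Hmox1 was at 772 CPM in 1d and 810 CPM in 7d, against 1149 CPM in Ctrl, in cluster 5.0 at 375 CPM in 1d and 710 CPM in 7d, against 509 CPM in Ctrl, and in cluster 9 at 1766 CPM in 1d and 1706 CPM in 7d, against 1622 CPM in Ctrl. The lower class value of 1d was therefore found within clusters 4 and 5.0 and not within cluster 9, and in 7d cluster 5.0 lay above Ctrl (1.39, 1.25 to 1.56).

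Slc7a11 was a neutrophil gene in these samples. Neutrophil-like cells were at 1330 CPM in 1d and 1530 CPM in 7d, against 2558 CPM in Ctrl, and led the order of classes in every library without overlap with the next. They held 48.3% of the library's Slc7a11 UMIs in 1d and 22.5% in 7d, against 81.6% in Ctrl, and 7d neutrophil precursor-like cells held 48.2%. The class ratios were 0.520 (0.504 to 0.537) in 1d and 0.598 (0.565 to 0.632) in 7d. In 1d the ratio was closer to 1 within each cluster than for the class, and in 7d it was closer in clusters 5.0 and 9 but not in cluster 4 (0.580). Cluster 4 was at 2098 CPM in 1d and 1788 CPM in 7d, against 3081 CPM in Ctrl, cluster 5.0 at 853 and 937 CPM against 1041 CPM, and cluster 9 at 3962 and 3911 CPM against 4693 CPM. The class share of cluster 9, the highest of the 3, was 94 of 759 cells in 1d and 78 of 250 in 7d, against 1015 of 2905 in Ctrl. In every one of these clusters both irradiated libraries lay under Ctrl.

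**Figure D4:**
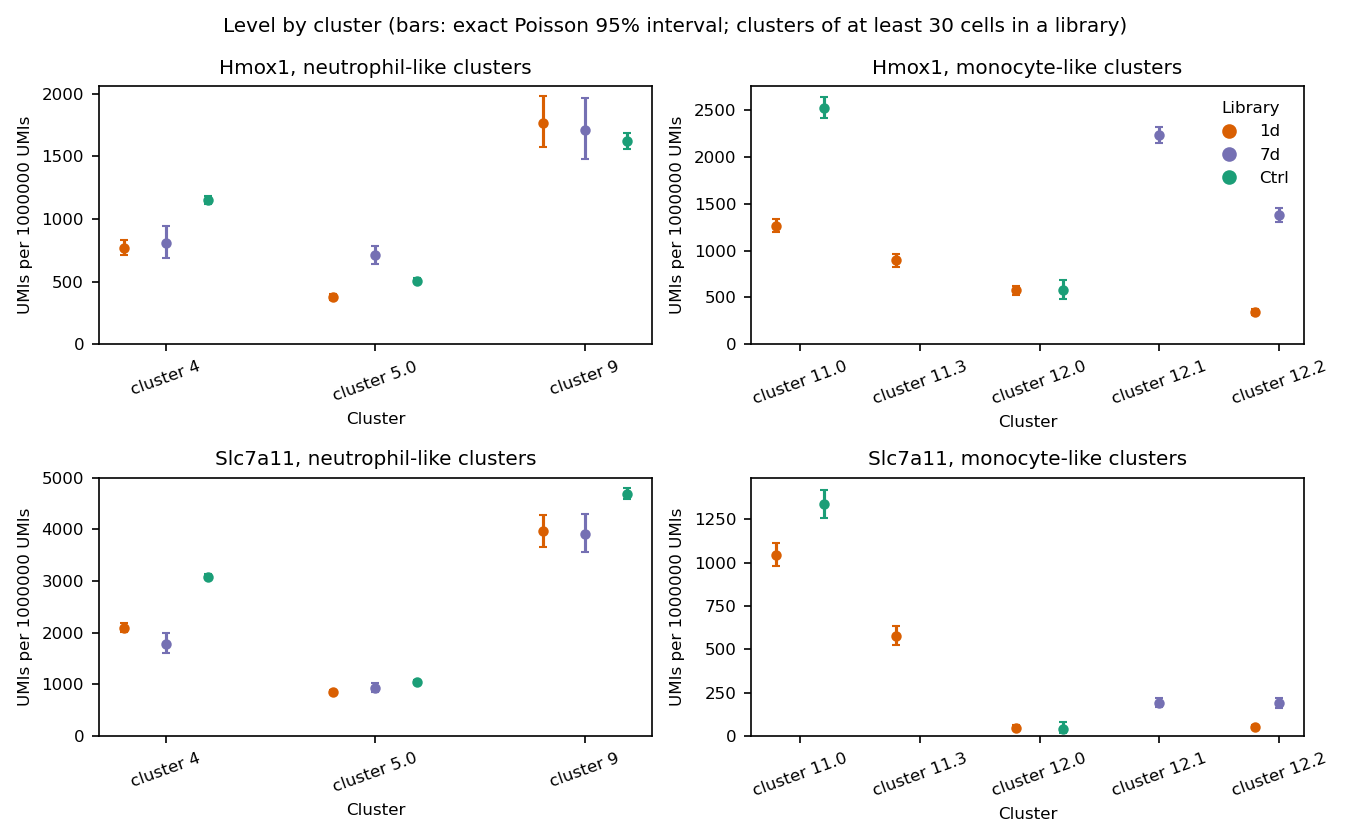
Hmox1 and Slc7a11 levels, in UMIs per 1000000, in single neutrophil- and monocyte-like clusters of 1d, 7d and Ctrl with exact Poisson 95% intervals. In neutrophil cluster 9 Hmox1 is at 1766, 1706 and 1622 CPM in 1d, 7d and Ctrl, and in cluster 4 Slc7a11 is at 2098, 1788 and 3081 CPM.

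Monocyte-, macrophage-, conventional dendritic cell- and basophil-like cells were also under Ctrl in Slc7a11 in both irradiated libraries, whereas neutrophil precursor-like cells were not. The precursors were at 152 CPM in 1d and 226 CPM in 7d, against 202 CPM in Ctrl, with ratios of 0.753 (0.685 to 0.828) and 1.12 (1.02 to 1.24). Within precursor cluster 5.1 the ratios were 1.81 (1.48 to 2.24) in 1d and 2.29 (1.83 to 2.89) in 7d, within cluster 21 they were 0.386 and 1.53, and the 7d log2 ratio of the class lay between −1.35 and 0.61 over the alternative settings, so its direction was not settled. Monocyte-like cells were at 393 CPM in 1d and 212 CPM in 7d, against 1050 CPM in Ctrl, with ratios of 0.374 (0.346 to 0.405) and 0.202 (0.182 to 0.224). Macrophage-like cells were at 478 CPM in 1d and 101 CPM in 7d, against 760 CPM in Ctrl, with ratios of 0.629 (0.520 to 0.757) and 0.133 (0.0836 to 0.202). Conventional dendritic cell-like cells were at 292 CPM in 1d and 101 CPM in 7d, against 491 CPM in Ctrl, and basophil-like cells at 73.4 CPM in 1d and 231 CPM in 7d, against 536 CPM in Ctrl. In 7d, Hmox1 and Slc7a11 therefore parted in basophil- and conventional dendritic cell-like cells, Hmox1 above Ctrl and Slc7a11 under it. Within monocyte cluster 11.0 the 1d ratio of Slc7a11 was 0.782 (0.717 to 0.853), against 0.374 for the class. Within cluster 12.0, at 42.1 CPM in Ctrl, it was 1.13 (0.540 to 2.63). Monocyte clusters 12.1 and 12.2 held 228 and 74 cells of 7d, against 1 Ctrl cell in each. No monocyte cluster had enough cells of both 7d and Ctrl for a ratio, so the class ratio of 0.202 compares different clusters. B cell-like cells of 7d had 0 Slc7a11 UMIs, against 51 UMIs (14.3 CPM) in Ctrl, at least 4.55-fold lower at the floor of 3 UMIs for the library, or 3.14 CPM. Neutrophil RNA, summed over the 7 genes, was 1488 CPM in B cell-like cells of 1d and 538 CPM in 7d, against 903 CPM in Ctrl, and its part in the Slc7a11 difference was not tested.

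Gclc belonged to basophils and lymphoid precursors more than to the pool. Basophil-like cells led in every library, at 579 CPM in 1d and 668 CPM in 7d, against 853 CPM in Ctrl, with no overlap with the next class. A single cell gave 36.6% of the 1d basophil UMIs and another 62.7% of those in 1d macrophage-like cells. B cell precursor-like cells followed at 278 CPM in 1d and 243 CPM in 7d, and had too few cells in Ctrl (9) for a level. B cell-like cells were at 138 CPM in 1d and 153 CPM in 7d, against 103 CPM in Ctrl, with ratios of 1.34 (1.16 to 1.56) and 1.49 (1.22 to 1.81). The B cell-like class was filled by different clusters, since cluster 24.1 held 502 of its 897 cells in 1d, 18 of 476 in 7d and 11 of 1744 in Ctrl. Within cluster 0, the main B cell-like cluster of Ctrl, the 1d ratio of Gclc was 0.944 (0.743 to 1.19), and the 7d ratio was 1.52 (1.22 to 1.89). Neutrophil precursor-like cells were at 28.3 CPM in 1d and 57.7 CPM in 7d, against 19.1 CPM in Ctrl, and conventional dendritic cell-like cells at 64.3 CPM in 1d and 131 CPM in 7d, against 59.6 CPM in Ctrl. Their 7d ratios were 3.02 (2.27 to 4.11) and 2.19 (1.51 to 3.23), so these classes lay above Ctrl where the pool lay under it. The log2 ratio of the precursors, 1.58, was 0.85 at Leiden resolution 2 and 3.35 with thinned cells.

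Gclm was highest in erythroid cell-like cells, which make haem, in the libraries that had enough of them. Erythroid cell-like cells were at 731 CPM in 1d and 590 CPM in 7d and led both libraries without overlap with the next class, and they held 13.9% and 35.8% of the Gclm UMIs of 1d and 7d. Ctrl had 9 cells of this class, too few for a level. The filters drop most mature red cells: over 50% of UMIs were haemoglobin in 756 of 916 barcodes dropped from 1d and 1094 of 1247 from 7d, against 2349 of 2435 from Ctrl. Basophil-like cells were next at 223 CPM in 1d and 272 CPM in 7d, and led in Ctrl at 363 CPM, ahead of pericyte- and endothelial cell-like cells at 216 and 206 CPM. Megakaryocyte-like cells, 15 in 1d and 18 in Ctrl, were too few to be ranked. They held 129 Gclm UMIs in 1d and 172 in Ctrl, beside 79 and 78 in basophil-like cells. Neutrophil-like cells were at 33.6 CPM in 1d and 54.9 CPM in 7d, against 81.1 CPM in Ctrl, with ratios of 0.414 (0.338 to 0.503) and 0.676 (0.493 to 0.908). The 1d ratios within neutrophil clusters 4, 5.0 and 9 were 0.594, 0.355 and 0.286, with intervals that all lay below 1. Macrophage-like cells were at 163 CPM in 1d and 61.6 CPM in 7d, against 146 CPM in Ctrl.

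Txnrd1 and Srxn1 were genes of the pool and of antigen-presenting cells. Txnrd1 was at 899 CPM in macrophage-like cells of 1d and 330 CPM in 7d, against 1048 CPM in Ctrl, with ratios of 0.857 (0.743 to 0.988) and 0.315 (0.245 to 0.401). Conventional dendritic cell-like cells were at 847 CPM in 1d and 398 CPM in 7d, against 762 CPM in Ctrl, so the 7d ratio was 0.523 (0.453 to 0.603). These 2 classes led every library, and their intervals overlapped in 1d and 7d. In Ctrl pericyte-like cells followed at 723 CPM. Monocyte-like cells were at 226 CPM in 1d and 267 CPM in 7d, against 527 CPM in Ctrl, and within cluster 11.0 the 1d ratio was 0.819 (0.723 to 0.929). B cell-like cells were low, at 33.9 CPM in 1d and 30.4 CPM in 7d, against 71.0 CPM in Ctrl.

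Srxn1 was at 265 CPM in macrophage-like cells of 1d and 79.2 CPM in 7d, against 314 CPM in Ctrl, with ratios of 0.843 (0.644 to 1.10) and 0.253 (0.147 to 0.410), the second at −1.95 on the log2 scale and at −4.51 with thinned cells. Osteoblast-like cells of Ctrl were at 284 CPM and overlapped with macrophage-like cells. Basophil-like cells were at 36.7 CPM in 1d and 171 CPM in 7d, against 163 CPM in Ctrl, and headed the order in 7d, where they overlapped with conventional dendritic cell-like cells at 140 CPM. The pool held 50.3% of the library's Srxn1 UMIs in 1d, against 57.2% in Ctrl, whereas in 7d monocyte-like cells held the most, 23.5%. B cell-like cells were almost without it, with 3, 1 and 6 UMIs in 1d, 7d and Ctrl, whereas natural killer or innate lymphoid cell-like cells held 6, 54 and 51 UMIs, or 25.4 CPM in 1d and 17.9 CPM in 7d, against 32.6 CPM in Ctrl.

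Nqo1 was sparse, with 60 UMIs in all kept cells of 1d and 91 in 7d, against 159 in Ctrl. The pool held 60% of them in 1d and 12.1% in 7d, against 62.9% in Ctrl, and erythroid cell-like cells of 7d held 39 UMIs (42.9%), at 15.7 CPM. Epithelial cell-like cells of Ctrl, with 22 UMIs, were at 23.7 CPM. B cell-like cells had 0 UMIs in every library. Only the pool had both 20 UMIs over the libraries of a comparison and 30 cells in each of them, so no other class was compared.

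Nfe2l2 was highest in myeloid cells. Conventional dendritic cell-like cells were at 543 CPM in 1d and 341 CPM in 7d, against 503 CPM in Ctrl, and neutrophil-like cells at 410 CPM in 1d and 303 CPM in 7d, against 609 CPM in Ctrl, with ratios of 0.672 (0.634 to 0.712) and 0.498 (0.438 to 0.564). The dendritic class led in 1d and the neutrophil class in Ctrl, each without overlap with the next, while in 7d macrophage-like cells at 379 CPM overlapped with the dendritic class. Monocyte-like cells were at 406 CPM in 1d and 267 CPM in 7d, against 513 CPM in Ctrl. Macrophage-like cells were at 315 CPM in 1d and 379 CPM in 7d, against 471 CPM in Ctrl. Within monocyte cluster 11.0 the order turned, with Nfe2l2 at 743 CPM in 1d against 543 CPM in Ctrl (1.37, 1.21 to 1.55). T cell-like cells were at 69.3, 62.3 and 73.5 CPM in 1d, 7d and Ctrl, and erythroid cell-like cells were lowest at 42.7 CPM in 1d and 36.7 CPM in 7d. B cell-like cells were at 139 CPM in 1d and 80.7 CPM in 7d, against 91.1 CPM in Ctrl, and in 1d most of them came from cluster 24.1. Within cluster 0 the 1d ratio of Nfe2l2 was 1.10 (0.866 to 1.38), against 1.52 for the class.

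Outside the pool, monocyte- and macrophage-like cells had members past 2-fold lower, and these were not the same members in each. The count in neutrophil-like cells lay near the background. In monocyte-like cells 4 of 7 members compared were past 2-fold lower in 1d (4.65% of all genes, 17.5% higher) and 1 of 7 in 7d (6.65% lower, 15.3% higher), with medians of −1.22 and −0.63. The 4 were Hmox1, Slc7a11, Txnrd1 and Srxn1, and within cluster 11.0, which held most of the Ctrl cells, their 1d ratios were 0.502, 0.782, 0.819 and 0.533, with 0 of the 4 past 2-fold. In macrophage-like cells 0 of 7 were past 2-fold in 1d (4.4% lower, 4.98% higher) and 4 of 7 were lower in 7d (10.8% lower, 9.44% higher), the 4 being Slc7a11, Txnrd1, Srxn1 and Gclm, while Hmox1 was at 0.967 (0.863 to 1.08). In neutrophil-like cells 1 of 7 was past 2-fold lower in 1d (10.2% lower, 1.96% higher), and 1 of 7 in 7d (16.9% lower, 8.92% higher). The 1d interval of all 7 lay below 1 for the class, but within cluster 4, its largest, the 1d ratio turned for 3 of them, to 1.16 for Txnrd1, 1.17 for Srxn1 and 1.23 for Gclc, each with an interval that held 1. In macrophage-like cells of 7d the interval of Hmox1 thus held 1, whereas those of the thioredoxin and cystine genes lay below it.

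**Figure D5:**
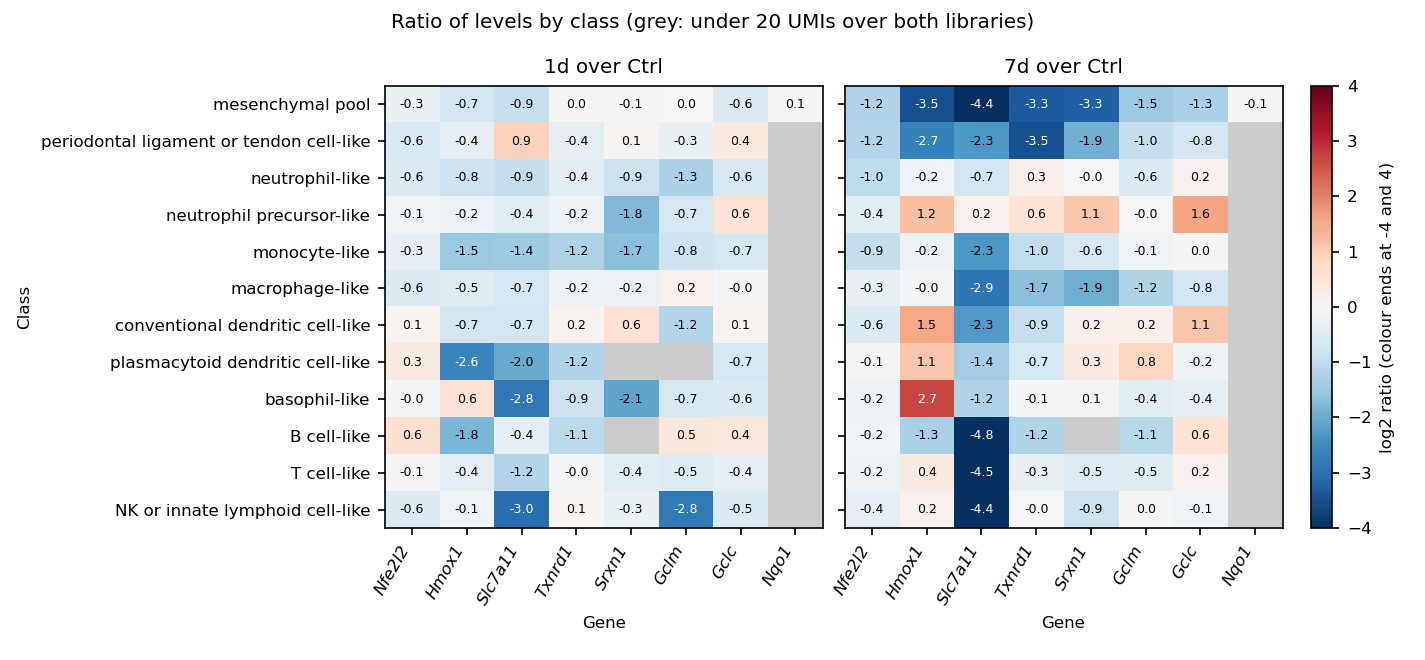
Log2 ratio to Ctrl of each member (columns) in 12 classes (lines), for 1d and for 7d. Grey marks pairs under 20 UMIs over both libraries the colour scale ends at −4 and 4, and with 0 UMIs in 1 library (Slc7a11 in B cell-like cells of 7d, Slc7a11 and Gclm in natural killer or innate lymphoid cell-like cells of 1d) the value depends on the 0.5 UMI added. In 7d the pool is on the lower side for all 8 members, whereas Hmox1 is on the higher side in basophil-like cells (2.66) and conventional dendritic cell-like cells (1.55).

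In the remaining myeloid classes the members past 2-fold lay on both sides. In conventional dendritic cell-like cells 1 of 7 was lower in 1d (4.62% lower, 3.47% higher), and in 7d 2 were higher and 1 lower (9.57% and 12% of all genes). Basophil-like cells had 2 of 7 lower in 1d (6.73% lower, 15.9% higher) and 1 higher and 1 lower in 7d (25.3% higher and 7.92% lower). Plasmacytoid dendritic cell-like cells had 3 of 5 lower in 1d (4.04% lower, 6.03% higher) and 1 of 7 on each side in 7d (10.8% lower, 6.86% higher). Neutrophil precursor-like cells had 1 of 7 lower in 1d (5.45% lower, 4.85% higher) and 3 of 7 higher in 7d (16.6% higher, 5.59% lower), namely Gclc, Hmox1 and Srxn1. Their Hmox1 was at 75.7 CPM in 1d and 203 CPM in 7d, against 88.9 CPM in Ctrl, and the 7d log2 ratio of 1.19 turned to −0.034 with clusters at Leiden resolution 0.5. The class was filled by different clusters, with 505, 114 and 56 cells of 1d, 7d and Ctrl in cluster 5.1, 241, 404 and 37 in cluster 21 and 378, 181 and 33 in cluster 26. Within them the 7d ratio of Hmox1 was 4.27 (2.90 to 6.50), 5.10 (3.85 to 6.90) and 1.15 (0.959 to 1.39). Srxn1, which rests on 106 UMIs in 7d and 10 in Ctrl, was 1.10 on the log2 scale and lay below 0 under 3 of the alternative settings.

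Lymphoid classes were read against free RNA. B cell-like cells had 2 of 6 members lower in 1d (4.91% lower, 10.3% higher) and 4 of 6 lower in 7d (8.8% lower, 4.08% higher). In T cell-like cells 1 of 7 was lower in 1d (4.57% lower, 4.15% higher) and 1 of 7 in 7d (6.78% lower, 3.65% higher), and in natural killer or innate lymphoid cell-like cells 2 of 7 in 1d (7.77% lower, 3.81% higher) and 1 of 7 in 7d (7% lower, 4.86% higher). Hmox1 and Slc7a11 were near 0 in all of these classes. After 5% of free RNA was subtracted, 12 of the member values had at most 3 counts in both libraries of a pair, 10 of them Hmox1 and Slc7a11 in these classes, so these counts say little about the cells themselves.

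The genes with the most similar levels were taken over 44 sums of a class in a library, by Pearson's r of log2(CPM + 10) among 10756 genes. These sums share libraries and depth, and r is a description. Srxn1 and Txnrd1 were among each other's 3 most similar genes (r = 0.84), beside Tubb6 for both, Itga5 for Txnrd1 and Tmbim1 for Srxn1. Slc7a11 was closest to Clec4d (0.93), Cxcl2 (0.91) and Cd14 (0.91), genes of activated myeloid cells. Hmox1 was closest to Mdm2 (0.86), Adam15 (0.85) and Ltbr (0.84), and Nfe2l2 to Zfp516 (0.87), Zswim4 (0.84) and Ftl1 (0.83). Gclm was closest to Specc1 (0.75), Hk1 and Tal1 (0.74 each), Gclc to Atp13a3 (0.73), Slc7a5 (0.71) and Slco2b1 (0.70), and Nqo1 to Slc22a23 (0.80), Dennd2c (0.79) and Agrn (0.74). Between the members, Nfe2l2 had r of 0.77 with Hmox1 and 0.80 with Slc7a11, but 0.13 with Gclm and −0.14 with Gclc.

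The members lie on chromosomes 2, 3, 8, 9 and 10 of GRCm38, as annotated by GENCODE. Nfe2l2 spans chr2:75675513-75704641 on the minus strand and Srxn1 chr2:152105516-152111376 on the plus strand. Slc7a11 spans chr3:49892526-50443614 (minus) and Gclm chr3:122245557-122270732 (plus), Hmox1 chr8:75093621-75100589 (plus) and Nqo1 chr8:107388225-107403206 (minus), Gclc chr9:77754535-77794485 (plus) and Txnrd1 chr10:82833951-82897712 (plus). All 8 are protein-coding genes.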

How the data were processed

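Jaw tissue of each group was minced, digested with collagenase II, frozen as a cell suspension and thawed before capture, per the labels' protocols. The deposited matrices hold counts of UMIs per gene and cell barcode, made with Cell Ranger 6.1.1 per the file headers. CASAVA 1.8, Cell Ranger, Seurat and mm10 are named in the submitters' processing notes; the sources used here do not give alignment settings.

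Barcodes under 500 UMIs or 250 detected genes, or with over 15% of UMIs from mitochondrial genes, were dropped. Doublets were called per library with Scrublet in scanpy 1.11.5, by its own threshold in Ctrl and at 0.8% per 1000 barcodes in 1d and 7d, where it had called under 0.5%. The 2000 most variable genes without the members, 30 components, 15 neighbours and Leiden resolution 1 gave clusters, split again at resolution 0.2 and named from marker genes (at least 3 with a log2 of 1 or more). Levels are summed counts with exact Poisson intervals, ratios have exact conditional intervals and shares exact Clopper-Pearson intervals. A pair needed 30 cells in each library and 20 UMIs, log2 ratios added 0.5 UMI, and scaling was checked with TMM factors of edgeR 4.0.16. The ratio intervals were tested on counts simulated with Poisson error only, so that test could not cover spread between cells or mice.

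The members, gene lists and tests were chosen with earlier results of these data known. Named were all members, for each the 3 genes with the highest Pearson r among those with at least 200 UMIs, and for each list and comparison in the pool up to 2 genes per side whose interval lay furthest from a ratio of 1. ATF4-list and regulator genes outside that rule (Keap1, Slc3a2), the p53 gene Mdm2 in 1d and the markers of the pool were chosen after their values were seen.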

Additional observations from a re-analysis of the deposited data

How the results depend on the processing

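The median of the members in the mesenchymal pool kept its sign under every alternative tried. In 1d it was −0.18 and ranged between −0.44 (unnamed cluster alone) and −0.09 (named clusters alone). In 7d it was −2.36 and lay between −2.63 (TMM factors) and −1.91 (named clusters alone), except at −1.11 with cells thinned to 1000 UMIs. Thinning counts every cell alike, and it moved Gclm, Srxn1, Txnrd1, Nfe2l2 and Nqo1 (to 1.01) outside their counting intervals, Hmox1, Slc7a11 and Gclc not; 59 of 166 values over all classes moved that way and 141 kept their sign. TMM factors shifted all log2 ratios of the pool by −0.13 in 1d and −0.27 in 7d. Single clusters of the pool, of B cell-like and of neutrophil-like cells, and the pool with a cluster found in Ctrl alone (7d median −2.29), were added after seeing the data. The largest cluster of the pool had under 30 cells of 7d and gave no value there.

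In neutrophil precursor-like cells of 7d the sign turned for Srxn1, which was 1.10 on the log2 scale, to −0.57 with doublets kept, −0.092 at Leiden resolution 0.5 and −0.70 at resolution 2, and for Hmox1, which was 1.19, to −0.034 at resolution 0.5. The cause was not tested. No paired analysis was possible because each group is 1 library. The 80 pool cells of 7d, and the few UMIs of Nqo1 in every library and of Slc7a11 in 7d, limit what can be detected.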
